A study of Homo sapiens with 12 samples.

Results

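Hsp60, encoded by HSPD1, and 9 genes of the mitochondrial chaperones and proteases that work beside it were followed across 12 RNA sequencing libraries of 2 cancer cell lines. They were picked by gene name, with earlier results of these data known, and make up 10 of the 23686 genes in the expression table: the chaperones HSPD1, HSPE1, HSPA9 and TRAP1, and the proteases or protease subunits LONP1, CLPP, CLPX, AFG3L2, YME1L1 and HTRA2. All 10 passed the filter on low values that left 13956 genes for testing, and none was near it, the lowest library value among them being 19.4 TPM (a level scaled to gene length and to a library's total).

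HCT116 is an established line from a colon cancer and MDA-MB-231 one from a breast cancer. Each line was sampled in 3 groups of 2 libraries: the anti-Hsp60N antibody with hydrogen peroxide (H2O2), IgG with H2O2, and IgG alone as the control. H2O2 was given at 100 µM for 8 h, and the N in the antibody's name is left unexplained by the labels. HCT116 was grown in a medium labelled MyCoy 5a and MDA-MB-231 in DMEM, each with 10% FBS, so line and medium cannot be told apart, and no group had the antibody without H2O2. Whether the libraries of a group are separate cultures is not recorded. All p-values therefore cover the spread between these libraries alone, and that spread may be technical. Each line is a single model of its tumour type, and both were treated in culture.

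Hsp60 is a double-ring chaperonin of the mitochondrial matrix that closes over an unfolded protein with the help of a lid, Hsp10, encoded by HSPE1. HSPA9 encodes mortalin, the Hsp70 of the matrix, which pulls proteins in through the inner membrane and hands them on, and TRAP1 encodes the Hsp90 of mitochondria. Proteins that fail to fold are degraded by LONP1, by the ClpXP complex of the protease CLPP and the unfoldase CLPX, and by membrane-bound AAA proteases that face the matrix (AFG3L2) or the intermembrane space (YME1L1). HTRA2, also called Omi, is a serine protease of the intermembrane space. Genes of this set are known to be induced when matrix proteins misfold, and HSPD1 and HSPE1 are known as targets of heat shock factor 1.

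The libraries were alike in what was detected, with 12411 to 12653 genes at 1 TPM or more. Across genes, libraries of 1 group correlated at 0.994 to 0.996, libraries of 1 line but different groups at 0.985 to 0.995, and libraries of different lines at 0.787 to 0.796. Most markers separated the lines as labelled: 9 epithelial genes summed to 5985 to 6339 TPM in HCT116, against 1742 to 1969.7 TPM in MDA-MB-231, and 8 mesenchymal genes to 356 to 393 TPM in HCT116, against 3446 to 3942 TPM in MDA-MB-231. The intestinal factor CDX2 was listed at 0 in MDA-MB-231, with a median of 14.5 TPM in HCT116. Some list members were near 0 in both lines: VIL1 had at most 0.04 TPM in HCT116, against 0.07 TPM in MDA-MB-231, SPARC at most 0.48 TPM in HCT116, against 0.81 TPM in MDA-MB-231, and CDH2 was listed at 0 in HCT116 with at most 0.51 TPM in MDA-MB-231. Markers of fibroblasts, endothelial cells and immune cells summed to at most 10.1, 2.95 and 6.5 TPM in any library. TPM keeps no read depth, so the depth of a library is unknown and no counting interval could be given. In bulk libraries such as these, fewer cells with a transcript and less of it per cell cannot be told apart.

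HSPD1 and HSPE1 lie head to head in the genome, with 104 bases between their RefSeq starts (chr2:197500275-197500378, GRCh38.p14). The 30 bases around an E-box, CACGTG, in that stretch are shown because both genes fell with H2O2 in HCT116 (below). They lie at chr2:197500345-197500374, are read on the plus strand towards HSPE1, and have the E-box in capitals. In GENCODE release 29 this E-box lies in an exon, and there in the UTR, of 2 HSPE1 transcripts. Whether it has a part in the fall of both genes was not tested. An E-box also lay near a start of HSPA9, which rose, and of LONP1, which was not called.
HSPD1 and HSPE1, E-box between the starts: gggtgattttttCACGTGtcgccagggccg
RefSeq also gives HSPD1 a second start inside the gene, and the window before it held the letters of a heat shock element, shown in capitals as 2 overlapping matches to 3 alternating units, GAA NN TTC NN GAA, read on either strand (chr2:197500061-197500090, GRCh38.p14, minus strand). In GENCODE release 29 these bases lie in an intron of 1 HSPD1 transcript and in a UTR exon of 1 HSPE1 transcript.
HSPD1, before its second start: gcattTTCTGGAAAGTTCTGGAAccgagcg

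Windows of 300 bases, 250 before and 50 after a RefSeq start, were at hand for 8 of the 10 genes, all but CLPP and YME1L1 (11 windows, GRCh38.p14), and 5 motifs were searched on both strands. The heat shock element was found for HSPD1 alone among these 8 genes, against 0.608% of the 27305 genes with a window. The E-box was found for HSPD1, HSPE1, HSPA9 and LONP1, against 8.77% of genes, and the match of HSPD1 and HSPE1 is 1 and the same site. The E-box of HSPA9 lay in a UTR exon of 1 HSPA9 transcript, and each of the 2 of LONP1 in a UTR exon of 1 LONP1 transcript (GENCODE release 29). The cyclic AMP response element TGACGTCA was found for TRAP1 alone (2.25% of genes) and the NRF1-type element, GCGCA followed by its reverse complement TGCGC, for LONP1 alone (1.52%). The ATF4-type element TGATGNAA matched in 0 of the 8 (4.46% of genes), which says only that these letters are not in these windows. These matches are descriptions of the windows. The stretches below show 3 of them, each on the gene's own minus strand, with the motif in capitals: for HSPA9 chr5:138575403-138575432, for TRAP1 chr16:3717600-3717629 and for LONP1 chr19:5720633-5720662, before the second of its RefSeq starts.
HSPA9, E-box: cgcccctcacccCACGTGgttggaggtttc
TRAP1, cyclic AMP response element: ggcgcccgccgTGACGTCAccgccccgcgc
LONP1, NRF1-type element: ctgaagccctGCGCATGCGCatcaatgagt

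HSPD1 was the most abundant of the 10 genes in every library. Averaged over the 6 libraries of a line, it had 1793 TPM in HCT116, ranking 96th of all genes, and 671 TPM in MDA-MB-231, ranking 205th. HSPE1 followed with 666 TPM in HCT116, against 432.5 TPM in MDA-MB-231, and HSPA9 with 564 TPM in HCT116, against 314.5 TPM in MDA-MB-231. The least abundant gene was HTRA2 in HCT116 (22.5 TPM), while in MDA-MB-231 CLPX (36.7 TPM) and HTRA2 (38.4 TPM) were lowest. Together the 10 genes held 0.369% to 0.432% of all TPM in the HCT116 libraries and 0.19% to 0.208% in the MDA-MB-231 libraries. Reads of HSPD1 and HSPE1 can be shared with near-identical processed pseudogenes, of which 0 had a row of their own in the table under the names HSPD1P or HSPE1P, so a share of reads from such copies cannot be told apart. The read-through gene HSPE1-MOB4 had at most 1.07 TPM. The table pools transcripts of a gene.

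**Figure D1:**
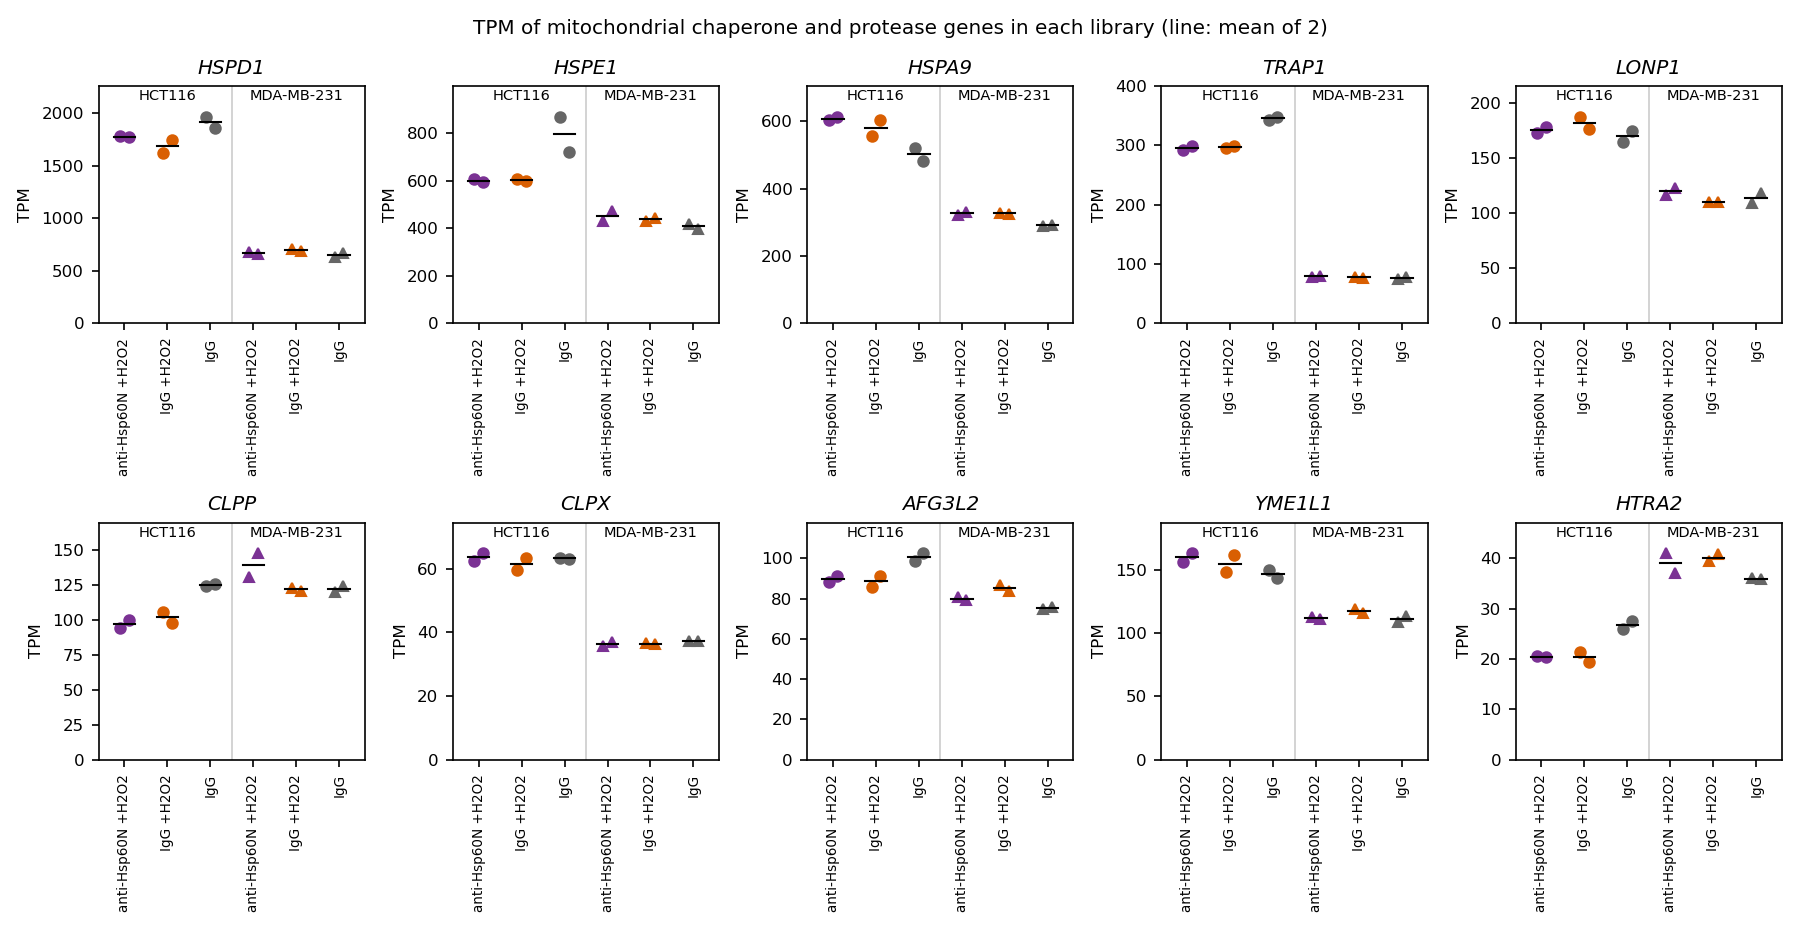
TPM (y axis, from 0) of each of the 10 genes in the 12 libraries, by treatment along the x axis. HCT116 libraries (circles) stand left of MDA-MB-231 libraries (triangles), and the short line is the mean of 2 libraries. HSPD1 lies between 1625 and 1965 TPM in HCT116, and in MDA-MB-231 between 633 and 709 TPM.

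Most of these genes were modestly lower with H2O2 in HCT116, and 1 was higher. Of the 10, 6 fell and 1 rose with IgG and H2O2 against IgG alone, while over all 13956 genes 32.9% were called in either direction, 17.5% lower and 15.4% higher. Transcripts of both parts of the chaperonin fell, with HSPE1 at 0.758 and HSPD1 at 0.882 of the IgG mean TPM. No protein was measured. TRAP1, CLPP, AFG3L2 and HTRA2 fell as well, and HSPA9, the Hsp70 of the matrix, rose. A gene was called at an adjusted p under 0.05 in limma, on the log2(TPM + 1) scale, with p-values adjusted over all genes. The median log2 fold change of the 10 genes was -0.18, against -0.01 over all genes tested.

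Of the chaperonin, HSPD1 had 1625 and 1749 TPM in the IgG+H2O2 libraries of HCT116, against 1965 and 1861 TPM in the IgG libraries. Every H2O2 library was lower, and the groups did not overlap. The log2 fold change was -0.18 (SE 0.05, limma adjusted p = 0.0147). It was -0.14 without IgG replicate 1 (adjusted p = 0.0807) and -0.13 without IgG+H2O2 replicate 1 (0.12), -0.14 after quantile normalization (0.0709), and not called with the line fitted alone (0.0805). Over all alternatives the adjusted p of this HSPD1 change ran from 0.0113 to 0.12.

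HSPE1, the lid, had 606 and 600.4 TPM in the IgG+H2O2 libraries, against 869 and 722 TPM in the IgG libraries. The groups did not overlap, and the IgG libraries stood wide apart. The log2 fold change was -0.39 (SE 0.08, limma adjusted p = 0.00313). Without IgG replicate 1, the higher of the pair, it was -0.26, and it stayed called without each of the 12 libraries (adjusted p up to 0.0226). Over all alternatives its adjusted p ran from 0.000415 to 0.0499, the highest with the line fitted alone.

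HSPA9 went the other way. It had 557 and 604 TPM in the IgG+H2O2 libraries, against 521 and 483 TPM in the IgG libraries, with no overlap. The log2 fold change was 0.21 (SE 0.05, limma adjusted p = 0.00865). The call was lost without IgG replicate 2 (adjusted p = 0.058) or IgG+H2O2 replicate 2 (0.0777) and with the line fitted alone (0.0681), with a range of 0.00511 to 0.0777 over all alternatives.

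TRAP1 had 296 and 299 TPM in the IgG+H2O2 libraries, against 343 and 348 TPM in the IgG libraries. Both groups were tight and lay apart (log2 fold change -0.21, SE 0.04, limma adjusted p = 0.00278). TRAP1 is known to restrain respiration and cell death signals in mitochondria.

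Among the proteases of the matrix, CLPP had 105 and 97.9 TPM in the IgG+H2O2 libraries, against 124 and 125 TPM in the IgG libraries (log2 fold change -0.29, SE 0.06, limma adjusted p = 0.00519). Its partner CLPX, which unfolds substrates and feeds them to CLPP, had 59.5 and 63.3 TPM in the IgG+H2O2 libraries, against 63.4 and 62.9 TPM in the IgG libraries. The CLPX groups overlapped, and its log2 fold change was -0.04 (95% interval -0.15 to 0.07). LONP1, a protease that also removes oxidised proteins, had 188 and 177 TPM in the IgG+H2O2 libraries, against 165 and 175 TPM in the IgG libraries. The groups of LONP1 lay close without overlapping, and the change of 0.10 (95% interval -0.02 to 0.22, limma adjusted p = 0.183) passed only after quantile normalization (0.18, adjusted p = 0.0222).

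Of the membrane proteases, AFG3L2 had 85.9 and 91.4 TPM in the IgG+H2O2 libraries, against 98.9 and 102 TPM in the IgG libraries (log2 fold change -0.18, SE 0.05, limma adjusted p = 0.0147). The AFG3L2 call was lost without IgG+H2O2 replicate 1 (adjusted p = 0.109) or IgG replicate 2 (0.0722), after quantile normalization (-0.11, adjusted p = 0.0791) and with the line fitted alone (0.0507), in a range of 0.0132 to 0.109 over all alternatives. YME1L1, on the other face of the inner membrane, had 148 and 162 TPM in the IgG+H2O2 libraries, against 150.1 and 143 TPM in the IgG libraries. Its groups overlapped, with a log2 fold change of 0.08 (95% interval -0.04 to 0.19). HTRA2, which promotes cell death once it is released from mitochondria, had 21.5 and 19.4 TPM in the IgG+H2O2 libraries, against 25.9 and 27.6 TPM in the IgG libraries. The HTRA2 groups lay apart (log2 fold change -0.38, SE 0.07, limma adjusted p = 0.00213), with a change second in size to that of HSPE1 among the 10. The calls of HSPE1, TRAP1, CLPP and HTRA2 held in every alternative tried.

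In MDA-MB-231, H2O2 moved none of the 10 genes past the threshold. Limma called 0 of 10, against 2.66% of all genes tested (1.3% higher and 1.36% lower), so the count is near the background. Of the 10, 3 (HSPA9, AFG3L2 and HTRA2) had an unadjusted limma p under 0.05. No other tool was run. After median-of-ratios scaling the calls over all genes split into 151 higher and 284 lower, against 181 higher and 190 lower as deposited, and 0 of the 10 were called. The log2 fold changes lay between -0.04 and 0.18 with a median of 0.09, against 0.03 over all genes. HSPD1 had 709 and 687 TPM in the IgG+H2O2 libraries, against 633 and 666 TPM in the IgG libraries. Both H2O2 libraries were above both IgG libraries, and the change did not pass the test (log2 fold change 0.10, 95% interval -0.00 to 0.21, limma adjusted p = 0.308). HSPE1 had 432 and 443 TPM with IgG+H2O2, against 419.7 and 398 TPM with IgG (0.10, 95% interval -0.07 to 0.27). HSPA9 had 327 and 326 TPM in the IgG+H2O2 libraries, against 289.8 and 292 TPM in the IgG libraries (0.17, 95% interval 0.06 to 0.27, limma adjusted p = 0.113). AFG3L2 had 86.7 and 84 TPM with IgG+H2O2, against 74.8 and 75.9 TPM with IgG (0.18, 95% interval 0.07 to 0.28, limma adjusted p = 0.0861). HTRA2 had 39.4 and 40.8 TPM with IgG+H2O2, against 36 and 35.9 TPM with IgG (0.15, limma adjusted p = 0.289). In HSPE1, HSPA9, AFG3L2, YME1L1 and HTRA2, too, the H2O2 libraries lay above the IgG libraries without overlap. In CLPX they lay below the IgG libraries, also without overlap. None of these genes was called, and the share of all genes with such a separation was not computed. The separations are therefore not read as changes. TRAP1, LONP1, CLPP and CLPX had log2 fold changes of 0.01, -0.04, -0.00 and -0.03, and YME1L1 0.08.

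**Figure D2:**
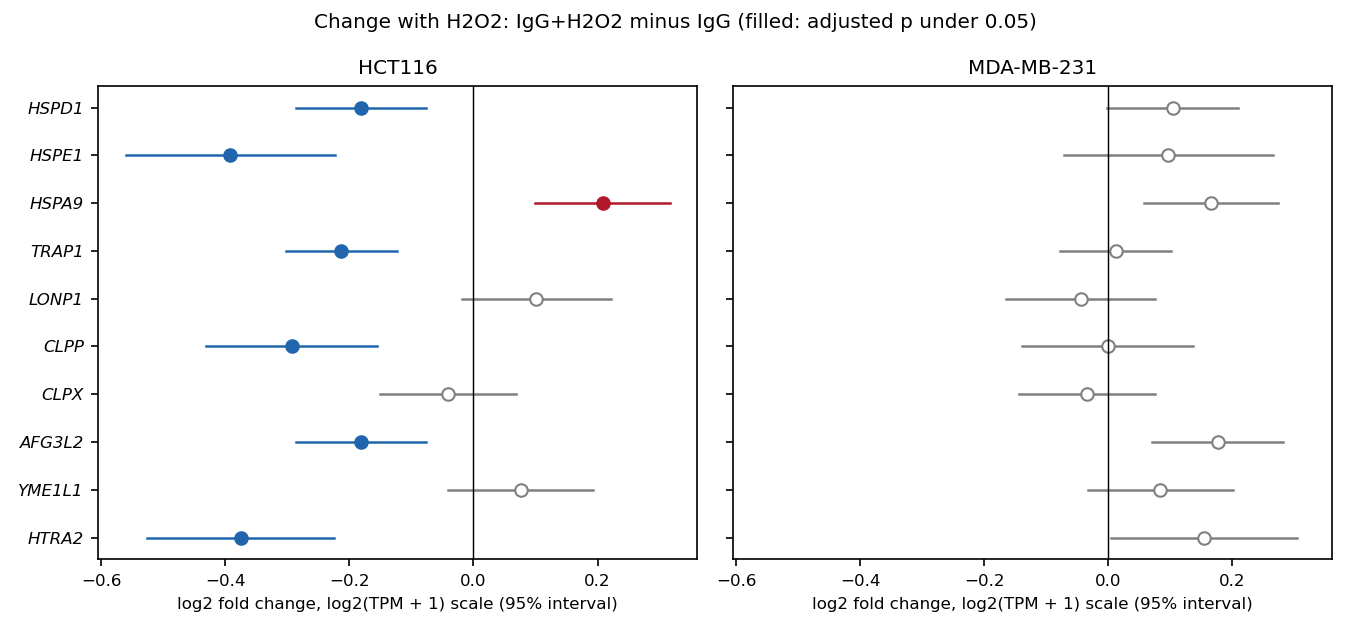
Log2 fold change with H2O2 (x axis, log2(TPM + 1) scale) of each of the 10 genes (y axis) in HCT116 (left) and MDA-MB-231 (right). Points are limma estimates from 2 libraries a group, bars their 95% intervals, and filled points passed an adjusted p under 0.05. The 6 genes that fell and the 1 that rose in HCT116 are filled, and in MDA-MB-231 0 are.

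The change with H2O2 differed between the lines for 6 of the 10 genes. A test of the difference itself, the HCT116 change minus the MDA-MB-231 change, called 6 of 10 lower and 0 higher, against 9.72% of all genes lower and 7.65% higher (17.4% in all). Over all genes, median-of-ratios scaling turned that split to 1307 higher and 1041 lower, against 1067 higher and 1356 lower as deposited, and 5 of the 10 were then called, all lower. The 6 genes were HTRA2 (difference -0.53, SE 0.10, limma adjusted p = 0.00531), HSPE1 (-0.49, SE 0.11, 0.0125), AFG3L2 (-0.36, SE 0.07, 0.0062), CLPP (-0.29, SE 0.09, 0.0447), HSPD1 (-0.29, SE 0.07, 0.0172) and TRAP1 (-0.23, SE 0.06, 0.0233). HTRA2, HSPE1 and AFG3L2 stayed called in every alternative tried, and after quantile normalization they were the 3 that remained. The difference of HSPD1 was lost without IgG replicate 1 (adjusted p = 0.0629) or IgG+H2O2 replicate 1 (0.0687) of MDA-MB-231, without IgG+H2O2 replicate 1 of HCT116 (0.0643) and after quantile normalization (0.0696), with a range of 0.0129 to 0.0696. That of TRAP1 was lost without IgG replicate 1 (0.0638) or either IgG+H2O2 replicate (0.0793 and 0.0711) of MDA-MB-231, without either IgG+H2O2 replicate of HCT116 (0.0693 and 0.0535) and after quantile normalization (0.0695). That of CLPP was the least steady, lost without any 1 of 10 of the 12 libraries (adjusted p up to 0.137) and in 4 of 6 other settings, among them no filter (0.0673), median-of-ratios scaling (0.0792) and quantile normalization (0.116); it held without either anti-Hsp60N+H2O2 library of MDA-MB-231. The median difference was -0.26 over the 10 genes and -0.04 over all genes tested. For HSPA9 the difference was 0.04 (95% interval -0.11 to 0.20), so the rise in HCT116 was not shown to differ from the change in MDA-MB-231. For LONP1 it was 0.15 (-0.02 to 0.32), for CLPX -0.01 (-0.16 to 0.15) and for YME1L1 -0.01 (-0.17 to 0.16).

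The antibody named for Hsp60 went with no called change in HSPD1 or in the other 9 genes. This comparison shares its IgG+H2O2 libraries with the H2O2 comparison above. With anti-Hsp60N and H2O2 against IgG and H2O2, limma called 0 of 10 in HCT116, where 0.0215% of all genes were called (0.00717% higher and 0.0143% lower), and 0 of 10 had an unadjusted p under 0.05. In MDA-MB-231 it called 0 of 10, where 0.0143% of all genes were called, and 1 of 10, CLPP, had an unadjusted p under 0.05. With so few calls over all genes, a count of 0 among 10 is near the background.

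In HCT116, HSPD1 had 1780.1 and 1775 TPM in the anti-Hsp60N+H2O2 libraries, against 1625 and 1749 TPM in the IgG+H2O2 libraries. Both antibody libraries were higher and lay close together, but the log2 fold change of 0.08 (95% interval -0.03 to 0.18, limma adjusted p = 0.92) did not pass the test. HSPE1 had 606 and 594 TPM with anti-Hsp60N+H2O2, against 606 and 600.4 TPM with IgG+H2O2 (-0.01, 95% interval -0.18 to 0.16). HSPA9 had 604 and 613 TPM with anti-Hsp60N+H2O2, against 557 and 604 TPM with IgG+H2O2 (0.07, 95% interval -0.04 to 0.18). The log2 fold changes of all 10 genes in HCT116 lay between -0.07 and 0.08.

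In MDA-MB-231, HSPD1 had 673 and 658 TPM in the anti-Hsp60N+H2O2 libraries, against 709 and 687 TPM in the IgG+H2O2 libraries. Both antibody libraries were lower, and the log2 fold change was -0.07 (95% interval -0.17 to 0.04). CLPP had 130.2 and 147 TPM with anti-Hsp60N+H2O2, against 123 and 121 TPM with IgG+H2O2, and its 2 antibody libraries stood further apart than any other CLPP pair of this line (0.18, 95% interval 0.05 to 0.32, limma adjusted p = 0.298). LONP1 had 117 and 123 TPM with anti-Hsp60N+H2O2, against 109.98 and 111 TPM with IgG+H2O2 (0.12, 95% interval -0.00 to 0.24, limma adjusted p = 0.39). The difference of the antibody change between lines was called for 0 of 10 genes, against 0.0287% of all genes, and 2 of 10 (LONP1 and CLPP) had an unadjusted p under 0.05. For HSPD1 that difference was 0.14 (95% interval -0.00 to 0.29, limma adjusted p = 0.405).

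**Figure D3:**
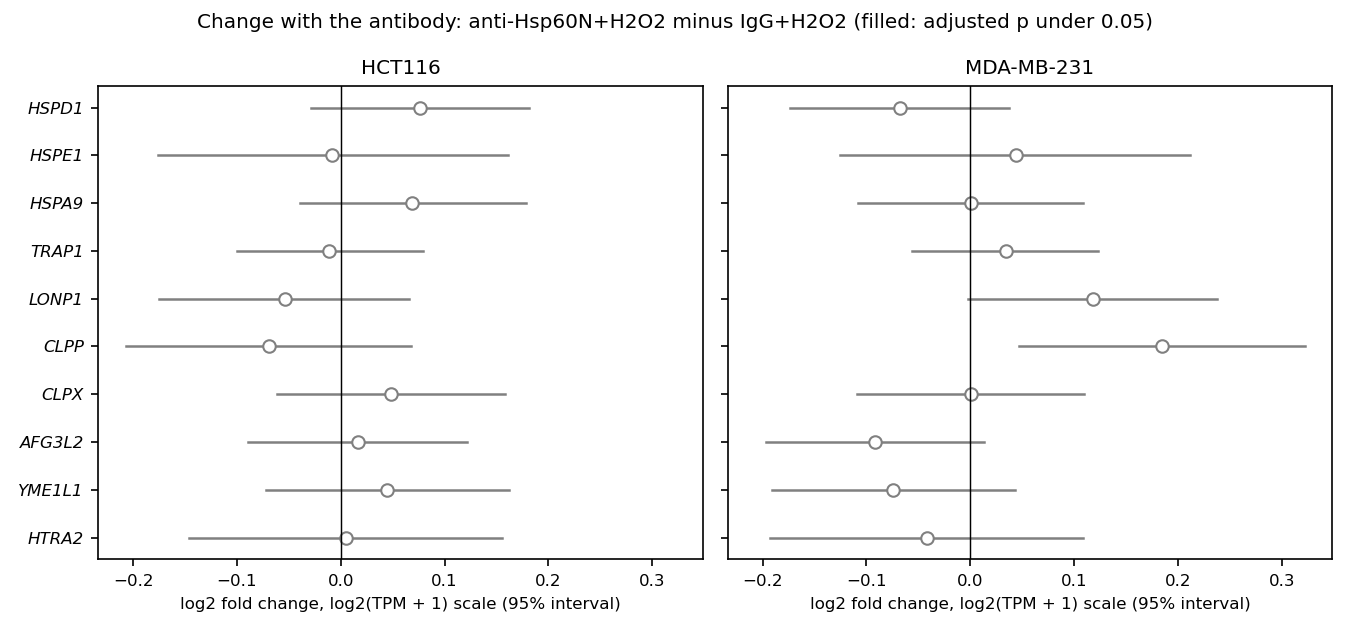
Log2 fold change with the antibody under H2O2 (x axis, log2(TPM + 1) scale) of each of the 10 genes (y axis) in HCT116 (left) and MDA-MB-231 (right). Points are limma estimates from 2 libraries a group and bars their 95% intervals. Open points did not pass an adjusted p under 0.05, and all are open; the highest is CLPP in MDA-MB-231 at 0.18.

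Under IgG alone the lines differed in 9 of the 10 genes, 8 higher and 1 lower in HCT116, where 82.8% of all genes were called (45.5% higher and 37.3% lower). The count is thus read against a high background, and the sizes say more. TRAP1 averaged 345 ± 3.74 TPM in HCT116, against 76.6 ± 2.31 TPM in MDA-MB-231 (SD, n = 2 each), a 4.51-fold difference. HSPD1 averaged 1913 ± 73.4 TPM in HCT116, against 649.8 ± 23 TPM in MDA-MB-231, which is 2.94-fold. HSPE1 averaged 795.5 ± 104 TPM in HCT116, against 409 ± 15.4 TPM in MDA-MB-231, which is 1.95-fold. HSPA9, CLPX and LONP1 were 1.73, 1.69 and 1.49-fold higher in HCT116, and AFG3L2 and YME1L1 1.34 and 1.32-fold. HTRA2 was lower, with 26.8 ± 1.23 TPM in HCT116 against 35.9 ± 0.113 TPM in MDA-MB-231. CLPP had 124.5 ± 0.87 TPM in HCT116 against 122 ± 3 TPM in MDA-MB-231 and was not called (log2 fold change 0.03, 95% interval -0.11 to 0.17). The median log2 difference was 0.66 for the 10 genes and 0.11 for all genes tested. Among the further gene lists given below it was 0.97 for other mitochondrial proteases and scaffolds and 0.98 for cytosolic chaperones. It was 0.15 for partners of the matrix chaperones and 0.26 for stress factors. A higher level in HCT116 is thus not particular to the 10 genes. Median-of-ratios scaling moved the median of all genes to -0.01, and there the log2 difference of CLPP turned to -0.10 without being called.

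Over the 6 groups, HSPD1 was highest in HCT116 under IgG (1913 TPM), then with anti-Hsp60N+H2O2 (1777 TPM) and IgG+H2O2 (1687 TPM), followed by MDA-MB-231 with IgG+H2O2 (698 TPM), anti-Hsp60N+H2O2 (666 TPM) and IgG (649.8 TPM). The libraries of neighbouring groups overlapped between the last 2 of these alone. HSPE1 and TRAP1 were also highest in HCT116 under IgG, and their IgG+H2O2 and anti-Hsp60N+H2O2 libraries of HCT116 overlapped. HSPA9 had the other order within HCT116, highest with anti-Hsp60N+H2O2 (609 ± 6.68 TPM), then IgG+H2O2 (580.4 ± 32.9 TPM) and IgG (502 ± 26.4 TPM). HTRA2 was the gene of the set whose 3 MDA-MB-231 groups all lay above the 3 HCT116 groups.

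Of 3 ratios of partner genes, computed from TPM and so per length, 2 differed between the lines without overlap. Over all genes, 82.8% were called between the lines under IgG, and ratios of other gene pairs were not computed. Whether such differences are particular to these partners was therefore not tested. HSPE1 over HSPD1 was 0.335 to 0.442 in the HCT116 libraries and 0.598 to 0.719 in the MDA-MB-231 libraries. The ranges lay apart, with a mean log2 difference of -0.81 (two-sided exact permutation test of the line labels within treatments, p = 0.00926, the smallest that 216 arrangements allow; 0.0139 adjusted over 3 ratios). CLPX over CLPP was 0.503 to 0.665 in HCT116 and 0.251 to 0.312 in MDA-MB-231, a mean log2 difference of 1.02 (exact permutation p = 0.00926, adjusted 0.0139). Within HCT116 it was 0.657 ± 0.0108 with anti-Hsp60N+H2O2, 0.606 ± 0.0567 with IgG+H2O2 and 0.507 ± 0.0064 under IgG (SD, n = 2 each). Within MDA-MB-231 the order of the means was the opposite, with 0.263 ± 0.0165 with anti-Hsp60N+H2O2, 0.299 ± 0.0018 with IgG+H2O2 and 0.306 ± 0.0084 under IgG. There the nearest libraries of IgG and IgG+H2O2 lay at 0.3002 and 0.3. These orders within a line were not tested. YME1L1 over AFG3L2 overlapped between lines, with 1.4 to 1.78 in HCT116 and 1.38 to 1.49 in MDA-MB-231 (mean log2 difference 0.22, exact permutation p = 0.037, adjusted 0.037). Under IgG the lines were alike in this ratio, 1.46 ± 0.0849 in HCT116 and 1.47 ± 0.0314 in MDA-MB-231. The HCT116 libraries with H2O2 stood higher, at 1.78 ± 0.0063 with the antibody and 1.74 ± 0.034 with IgG, and those of MDA-MB-231 lower, at 1.4 ± 0.0045 with the antibody and 1.38 ± 0.0025 with IgG. These shifts within a line were not tested either.

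**Figure D4:**
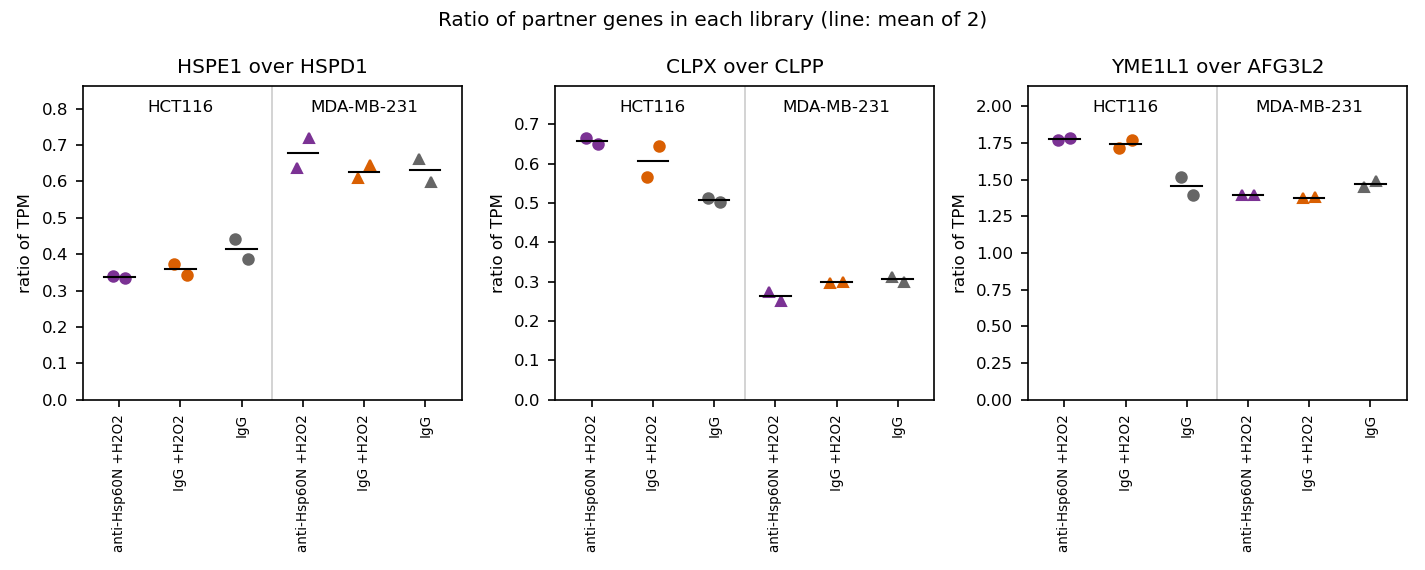
Ratio of the TPM of 2 partner genes (y axis, from 0) in each library by treatment (x axis), HCT116 (circles) left of MDA-MB-231 (triangles), with the mean of 2 libraries as a line. HSPE1 over HSPD1 is lower and CLPX over CLPP higher in every HCT116 library than in any MDA-MB-231 library.

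After each line's mean was subtracted, the pattern of HSPD1 over the 12 libraries was most like those of WDR3 (Pearson r = 0.971), SLC39A11 (0.964), NAE1 (0.961), XRCC5 (0.956) and KITLG (0.952), out of 10570 genes with a mean of at least 5 TPM. Of the set itself, AFG3L2 (r = 0.854) was most like HSPD1, ranking 140th, ahead of HSPE1 (0.69, rank 987), TRAP1 (0.686) and HTRA2 (0.659). LONP1 (-0.613) ran against it, and HSPA9 had a weak negative value (-0.181). These values share libraries and a total of TPM and are descriptions, with no test.

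Genes that work with the set were read from 4 further lists. Of 11 partners of the matrix chaperones, 1 rose and 2 fell with H2O2 in HCT116, with a list median of -0.01; over all genes 15.4% rose and 17.5% fell, so the count is near the background. GRPEL2, a nucleotide exchange factor for mortalin, rose (43.8 ± 0.771 TPM in IgG+H2O2 and 29.7 ± 1.33 TPM in IgG, SD, n = 2 each; log2 0.54, limma adjusted p = 0.000802). DNLZ, which keeps mortalin soluble (log2 -0.39, adjusted p = 0.00927), and CLPB, a mitochondrial disaggregase (log2 -0.30, adjusted p = 0.00831), fell. Of 14 tested genes among 15 other mitochondrial proteases and scaffolds, 5 fell and 0 rose (median -0.11), where 17.5% of all genes fell and 15.4% rose. PHB, a prohibitin that rings the AAA proteases (log2 -0.33), PMPCA, of the mitochondrial processing peptidase (log2 -0.40), and LACTB (log2 -0.37) had the smallest p-values.

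Factors tied to mitochondrial or heat stress, all but UBL5 transcription factors, and chaperones of the cytosol had list medians further from 0 than the mitochondrial set in HCT116. Of 9 factors 6 rose and 0 fell with H2O2 (median 0.98), where 15.4% of all genes rose, led by DDIT3 (CHOP, log2 2.68), ATF3 (log2 2.17) and CEBPG (log2 1.12). The 6 were ATF and C/EBP family genes. The heat shock factors HSF1 (log2 -0.15, limma adjusted p = 0.128) and HSF2 (log2 -0.08, adjusted p = 0.579) were not called, nor was UBL5, a ubiquitin-like protein (log2 0.03). Of 16 cytosolic chaperones, chosen as genes of the heat shock factor 1 type, 16 fell and 0 rose (median -0.56, range -1.32 to -0.23), where 17.5% of all genes fell. HSPA8, the constitutive Hsp70, had 2746 ± 19.9 TPM in IgG+H2O2 and 5116 ± 55.4 TPM in IgG (SD, n = 2 each; log2 -0.90). The ranges of both sets overlapped: the fall of HSPE1 (-0.39) was larger than that of HSP90AB1 (-0.23), the cytosolic chaperone with the smallest change. Of the tested markers, 1 of 8 epithelial genes rose and 1 fell, and 1 of 6 mesenchymal genes rose, with H2O2 in HCT116. These counts are near the background of 15.4% higher and 17.5% lower. With H2O2 in MDA-MB-231, 1 of 8 epithelial genes fell and 0 of 6 mesenchymal genes were called, where 1.36% of all genes fell. The difference between lines was called higher for 2 of 8 and 2 of 6, against 7.65% of all genes. The part of these markers in the results was not tested. In MDA-MB-231, 2 of 9 factors were higher with H2O2 (ATF4, log2 0.36, and CEBPG, log2 0.27), where 1.3% of all genes rose. Of 16 cytosolic chaperones 2 were higher, HSPA1A with a log2 change of 0.81 and HSPA1B with 0.84. These 2 share most of their sequence, so the split of reads between them is uncertain. None of the partners, or of the other proteases and scaffolds, was called in MDA-MB-231. That is near the background of 1.3% higher and 1.36% lower. The test of the difference between lines called 15 of 16 cytosolic chaperones lower, 5 of 9 factors higher, 2 of 14 other proteases lower and 0 of 11 partners, where 9.72% of all genes were lower and 7.65% higher. The counts of the proteases and partners are near that background. With the antibody, 0 genes of these 4 lists were called in either line. Over all genes 0.0215% were called in HCT116 and 0.0143% in MDA-MB-231, so this count is near the background. Under IgG alone, HCT116 was higher in 4 and lower in 2 of the 11 partners, higher in 10 and lower in 3 of the 14 other proteases and scaffolds, higher in 6 and lower in 3 of the 9 factors, and higher in 15 and lower in 1 of the 16 cytosolic chaperones, where 45.5% of all genes were higher and 37.3% lower.

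**Figure D5:**
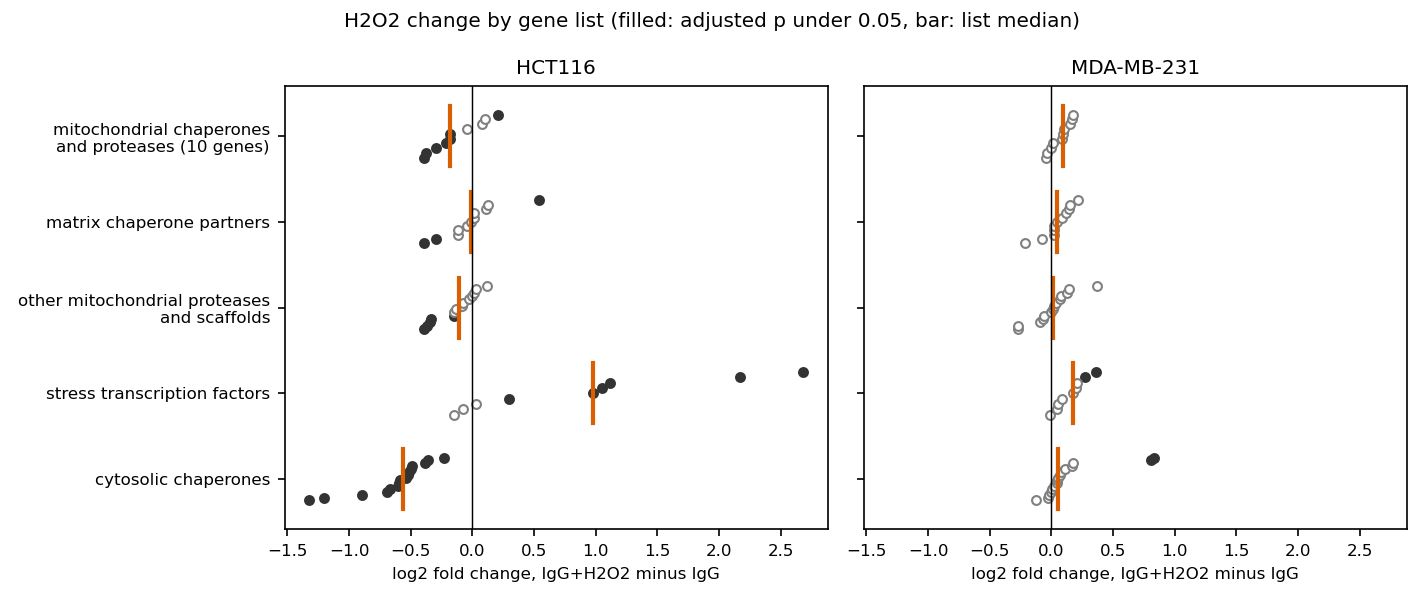
Log2 fold change with H2O2 (x axis) of the genes on each of 5 lists (y axis) in HCT116 (left) and MDA-MB-231 (right). Each point is a gene, filled where the adjusted p was under 0.05, and the bar is the list median. In HCT116 the bar of the cytosolic chaperones stands at -0.56 and that of the mitochondrial chaperones and proteases at -0.18.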

How the data were processed

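The authors deposited TPM per gene, 1 column per library, given to 2 decimals. Tools named in the submitters' processing notes are bcl2fastq 2.20, STAR and RSEM with build hg19; their roles, their other versions and the gene annotation are not stated there. All 12 columns were matched by the label in each sample's description, and 0 were left over. From the TPM, log2(TPM + 1) was computed, which understates changes of low genes. Genes with at least 1 TPM in at least 2 libraries were kept. Limma 3.58.1 (R 4.3.3) was fitted with a variance trend on 6 group means over all 12 libraries (6 residual and 4.63 prior degrees of freedom), two-sided, with Benjamini-Hochberg adjustment over the genes kept, and was tested on simulated data. The members and lists were chosen with earlier results of these data known. All 10 members are named; other lists name at most 3 genes of smallest p. HSF1, HSF2, UBL5 and HSP90AB1 were named after their values were seen. Of the list symbols, 1 (MAIP1) was not matched. Promoter windows are RefSeq's (GRCh38.p14), another build than the table's, and serve as sequence only. Plots used Python 3.11.15 and matplotlib 3.10.9. Alternatives were a pseudocount of 0.1, no filter, a mean of at least 5 TPM, median-of-ratios scaling, quantile normalization, the line alone, a replicate block and leaving out each library.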

Additional observations from a re-analysis of the deposited data

Results flagged for a closer look

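In 6 of the 10 genes the change with H2O2 differed between HCT116 and MDA-MB-231 by the test of the difference itself (HCT116 minus MDA-MB-231, limma, log2 scale): HSPD1 by -0.285, HSPE1 by -0.49, TRAP1 by -0.225, CLPP by -0.292, AFG3L2 by -0.358 and HTRA2 by -0.53. All 6 had a negative value, fell in HCT116 and were not called in MDA-MB-231. Their fold changes lay between -0.39 and -0.18 in HCT116 and between -0.00 and 0.18 in MDA-MB-231. Over all genes tested, 17.4% were called for this difference, 9.72% lower. HTRA2, HSPE1 and AFG3L2 stayed called in every alternative tried, while the calls of HSPD1, TRAP1 and CLPP were lost in some of them. Groups of 2 libraries are too small for a check of single outlying libraries.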

How the results depend on the processing

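Of the members' fold changes, 437 of 460 under other settings and 787 of 840 without 1 library kept their direction and their side of the threshold. The 840 include refits without a library outside the groups compared. There the fold change cannot move and only the shared spread can. The 460 include no filter, a mean of at least 5 TPM, the replicate block and the line fitted alone. These settings leave the fold change unmoved as well and can move only its p-values, so both counts overstate the stability. The cause of the other shifts was not tested. The number of members called for the difference of the H2O2 change between lines was 3 after quantile normalization, against 6, 3 to 6 without 1 library, and 5 with no filter or median-of-ratios scaling. For H2O2 in HCT116 it was 4 (0 higher, 4 lower) with the line fitted alone, against 7, and 5 to 7 without 1 library. Over all genes, the calls for H2O2 in MDA-MB-231 numbered 86 with the line fitted alone and 116 to 434 without 1 library, against 371, and for the antibody in that line 0 with the line alone or a mean of at least 5 TPM and 1 with the replicate block, against 2. A mean of at least 5 TPM left 1 call for the antibody in HCT116, against 3, and 0 for its difference between lines, against 4. Without 1 library, H2O2 in HCT116 had 3000 to 4650 calls, against 4592, and the difference of the H2O2 change 1251 to 2335, against 2423. All 3 ratios kept their side of the threshold without each library.

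Changes near 0 that were not called turned sign. After median-of-ratios scaling these were TRAP1 with H2O2 in MDA-MB-231 (-0.022), HTRA2 with the antibody in HCT116 (-0.007), CLPX (0.037) and YME1L1 (0.036) in the difference of the H2O2 change, and CLPP between lines (-0.100). After quantile normalization they were TRAP1 with H2O2 in MDA-MB-231 (-0.009), CLPX with H2O2 in HCT116 (0.015), HSPE1 (0.002) and HTRA2 (-0.008) with the antibody in HCT116, and CLPX (0.079) and YME1L1 (0.072) in the difference. Without 1 library, the H2O2 change in HCT116 ran from -0.084 to 0.003 for CLPX, and in MDA-MB-231 from -0.018 to 0.043 for TRAP1, from -0.102 to 0.013 for LONP1 and from -0.026 to 0.024 for CLPP. The antibody change in HCT116 ran from -0.022 to 0.006 for HSPE1, -0.025 to 0.004 for TRAP1, -0.027 to 0.061 for AFG3L2, -0.019 to 0.110 for YME1L1 and -0.067 to 0.076 for HTRA2. In MDA-MB-231 it ran from -0.026 to 0.114 for HSPE1, -0.020 to 0.022 for HSPA9, -0.024 to 0.025 for CLPX and -0.113 to 0.029 for HTRA2. The difference of the H2O2 change ran from -0.014 to 0.101 for HSPA9, -0.049 to 0.038 for CLPX and -0.072 to 0.057 for YME1L1, and that of the antibody change from -0.121 to 0.018 for HSPE1 and -0.025 to 0.118 for HTRA2.

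Whether the replicate numbers pair the samples is not recorded. Deviations of same-numbered libraries correlated at 0.012 to 0.164 in MDA-MB-231 and at -0.127 to 0.055 in HCT116. Such low values show no strong shared shift, but they cannot show that the samples were not paired. With the replicate number as a block, 7 members were called for H2O2 in HCT116 and 5 for the difference, where CLPP was lost (adjusted p = 0.0598, limma). Depth is unknown, and 2 libraries a group limit the precision.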
